A study of Mus musculus with 4 samples.

Results

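Toll-like receptors are the germline-encoded sensors with which macrophages recognise microbial lipids, proteins and nucleic acids. The 10 receptor genes described here (Tlr1, Tlr2, Tlr3, Tlr4, Tlr6, Tlr7, Tlr8, Tlr9, Tlr11 and Tlr13) were taken by symbol, and all 10 had reads in each of 4 libraries, in which 17008 genes had a read. The libraries hold RNA of macrophages of C57BL/6J mice labelled as 6-8 weeks old, sorted from either spleen or bone marrow. Normal mice were sampled at day 0, and mice with T cell acute lymphoblastic leukemia (T-ALL) at day 21 after transfer of GFP+ leukemia cells taken from other leukemic mice, without irradiation. The design sets macrophages of leukemic mice, which the submitters call leukemia-associated macrophages, against those of normal mice. Each of the 4 groups (normal bone marrow, T-ALL bone marrow, normal spleen, T-ALL spleen) is 1 library, so no test was possible and no difference has a replicate check. The number of mice behind a library, their sex and the markers of the sort were not given in the sources used here.

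Each receptor pairs a leucine-rich ectodomain with a cytoplasmic TIR domain. Tlr1, Tlr2, Tlr4 and Tlr6 sit at the cell surface, where Tlr2 pairs with Tlr1 or Tlr6 to bind lipopeptides and Tlr4 binds lipopolysaccharide with the help of Ly96 and Cd14. Tlr3, Tlr7, Tlr8, Tlr9, Tlr11 and Tlr13 are carried to endosomes by the chaperone Unc93b1. The receptors signal through the adaptor Myd88, with Tlr3 using Ticam1 instead and Tlr4 using both, to NF-kB and to interferon regulatory factors.

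The libraries held 8979385 to 9809676 uniquely mapped reads. All 15 macrophage core genes with a line in the files had reads in every library, and their summed level was 4499 CPM (reads scaled to a common library size) in normal bone marrow, 12014 in T-ALL bone marrow, 10272 in normal spleen and 5908 in T-ALL spleen. The lysozyme gene Lyz2 carries much of the bone marrow sums, and the other 14 genes summed to 1927, 6519, 9326 and 5667 CPM, highest in normal spleen. Transcripts of neutrophil precursors (12 genes) summed to 35654, 18246, 385 and 184 CPM in the same order, and those of mature neutrophils (8 genes) to 15683, 14089, 336 and 122 CPM. Both sums were above the macrophage core sum in each bone marrow library. T cell transcripts (13 genes) summed to 234, 933, 1161 and 4356 CPM. Csf1r, the receptor that defines the lineage, stood at 133, 947, 2415 and 1421 CPM. The Y-linked gene Ddx3y was at 0 CPM in both normal libraries and at 93.8 and 57.6 CPM in the T-ALL libraries of bone marrow and spleen. Xist, made from the inactive X chromosome, was at 861 CPM in normal and 0.644 CPM in T-ALL bone marrow, and at 849 and 416 CPM in the spleens. Sex-linked transcripts thus differed with the condition, and Xist also differed between the T-ALL libraries of bone marrow and spleen. Sex and condition cannot be told apart, nor can organ and sex-linked make-up between the T-ALL libraries. In bulk RNA, fewer cells of a type and less RNA per cell cannot be told apart either.

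The promoters of 4 receptors are shown as examples. Tlr13 and Tlr8 had the largest bone marrow differences and closely alike profiles, and Tlr2 had near-equal levels in the spleens. Tlr9 shared the direction of Tlr13 and Tlr8 in both organs, as did Tlr6 and Tlr7, whose promoters are not shown. Each line gives the 250 bases before the RefSeq start site (GRCm38.p6), 5′ to 3′ on the gene's strand. Capitals mark the core GAGGAA bound by the myeloid factor PU.1 (TTCCTC where it lies on the other strand) or, in Tlr2, overlapping matches to the NF-kB pattern, GGG and CC with any 5 bases between them. The Tlr13 window is chrX:106143025-106143274 (plus strand), that of Tlr8 is chrX:167264330-167264579 (minus strand), that of Tlr9 is chr9:106222348-106222597 (plus strand) and that of Tlr2 is chr3:83841609-83841858 (minus strand).
Tlr13: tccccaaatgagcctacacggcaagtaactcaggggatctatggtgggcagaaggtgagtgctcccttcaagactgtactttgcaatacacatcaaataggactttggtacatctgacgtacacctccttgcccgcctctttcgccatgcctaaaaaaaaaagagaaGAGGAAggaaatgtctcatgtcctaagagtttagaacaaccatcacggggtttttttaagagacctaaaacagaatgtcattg
Tlr8: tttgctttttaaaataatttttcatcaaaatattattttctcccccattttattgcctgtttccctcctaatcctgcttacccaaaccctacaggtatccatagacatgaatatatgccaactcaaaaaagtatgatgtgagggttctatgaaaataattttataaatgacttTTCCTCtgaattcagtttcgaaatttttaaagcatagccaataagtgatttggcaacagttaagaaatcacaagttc
Tlr9: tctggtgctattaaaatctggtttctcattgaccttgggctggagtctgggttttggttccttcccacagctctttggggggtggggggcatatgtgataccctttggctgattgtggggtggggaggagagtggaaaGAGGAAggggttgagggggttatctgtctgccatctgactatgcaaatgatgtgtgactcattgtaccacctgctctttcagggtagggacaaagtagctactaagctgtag
Tlr2: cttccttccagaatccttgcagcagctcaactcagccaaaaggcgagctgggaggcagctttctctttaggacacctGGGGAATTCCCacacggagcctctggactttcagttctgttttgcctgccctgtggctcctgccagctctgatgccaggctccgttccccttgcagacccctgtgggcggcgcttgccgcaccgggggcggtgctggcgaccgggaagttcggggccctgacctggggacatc

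The PU.1 core lay 83 to 78 bases before the start in Tlr13, 77 to 72 bases before it in Tlr8 and 112 to 107 bases before it in Tlr9. In Tlr2 the NF-kB matches spanned 173 to 163 bases before the start and the window held no PU.1 core. Tlr9 also held an AP-1 match, TGACTCA, 58 to 52 bases before the start. Searched on both strands, GAGGAA was found in 5 of the 10 windows of the 8 receptors in the RefSeq table (Tlr1, Tlr8, Tlr9, Tlr11 and Tlr13, with Tlr1 and Tlr6 having 2 windows each) and in 23.3% of 32851 promoter windows of the same length. The NF-kB pattern was found in 3 of the 10 windows (Tlr2, Tlr3 and Tlr6) and in 45.8% of all windows, and the AP-1 pattern TGANTCA in 1 of the 10 and in 6.75%. Such matches describe the letters of the window only. Tlr6, called in the same directions as Tlr13, Tlr8 and Tlr9, held no PU.1 core in either of its windows. The promoters of Tlr4 and Tlr7 were not among those searched.

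In bone marrow, the T-ALL library held more Toll-like receptor RNA, as a share of its reads, than the normal library. The size rule for calling a gene higher or lower was that it differed at least 2-fold on log2(CPM + 1) and had 10 CPM or more in the higher of the libraries compared. By this rule 7 of the 10 receptors were higher and 0 lower, with 8 reaching the minimum level. Of the 9716 genes measured, 8.01% were higher and 1.03% lower. Tlr1, Tlr6 and Tlr8 reached 10 CPM in the T-ALL library alone, so they could be called higher but not lower. The median change of the macrophage core list was 2.63 on the log2 scale. With that median subtracted from every gene, 0 receptors were higher and 3 lower, beside 0.165% and 95.8% of all genes measured, so those counts are set mainly by the subtraction. The median log2 fold over all 10 receptors was 1.59, beside -0.04 over all genes measured. Genes of other cell types also differed. Of the neutrophil precursor genes 9 of 12 were lower, while 3 of 8 mature neutrophil genes, 3 of 5 measured conventional dendritic cell genes and 13 of 13 T cell genes were higher. The summed level of the 10 conventional dendritic cell genes was 239 CPM in normal and 393 CPM in T-ALL bone marrow. The part of these cells in the receptor counts was not tested.

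In spleen the direction was the opposite. All 10 receptors were measured, and 0 were higher and 8 lower by the same rule. Of the 9774 genes measured, 10.3% were higher and 11% lower. Tlr3, Tlr6 and Tlr11 reached the minimum level in normal spleen alone, so they could be called lower but not higher. The median over the receptors was -1.40, beside -0.08 over all genes and -0.79 over the macrophage core list, 7 of whose 15 genes were lower. With that core median subtracted, 2 receptors were lower, Tlr3 and Tlr11, beside 2.11% of all genes measured. Conventional dendritic cell genes (8 of 9 measured), plasmacytoid dendritic cell genes (5 of 8), NK cell genes (5 of 6) and B cell genes (4 of 9) were also lower in T-ALL spleen, and 12 of 13 T cell genes were higher. Their summed levels went from 1163 to 477 CPM for the 10 conventional dendritic cell genes, from 758 to 427 CPM for the 10 plasmacytoid genes, from 203 to 138 CPM for the 8 NK cell genes and from 3354 to 1670 CPM for the 11 B cell genes, and their part was not tested. From normal to T-ALL spleen, Flt3, a dendritic cell receptor, went from 161 to 22.4 CPM and Siglech from 10.9 to 4.01 CPM. Ncr1 went from 9.62 to 1.95 CPM and Cd79a from 665 to 309 CPM. No library enters both of the T-ALL comparisons.

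Summed over the 10 genes, receptor reads made up 0.0135% of normal bone marrow reads (Wilson 95% interval 0.0128 to 0.0142%), 0.0595% in T-ALL bone marrow (0.0579 to 0.0610%), 0.0972% in normal spleen (0.0952 to 0.0993%) and 0.0406% in T-ALL spleen (0.0393 to 0.0419%). These shares are 1321, 5588, 8731 and 3719 reads, and they were lowest in normal bone marrow and highest in normal spleen. All intervals here and below cover counting error only.

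**Figure D1:**
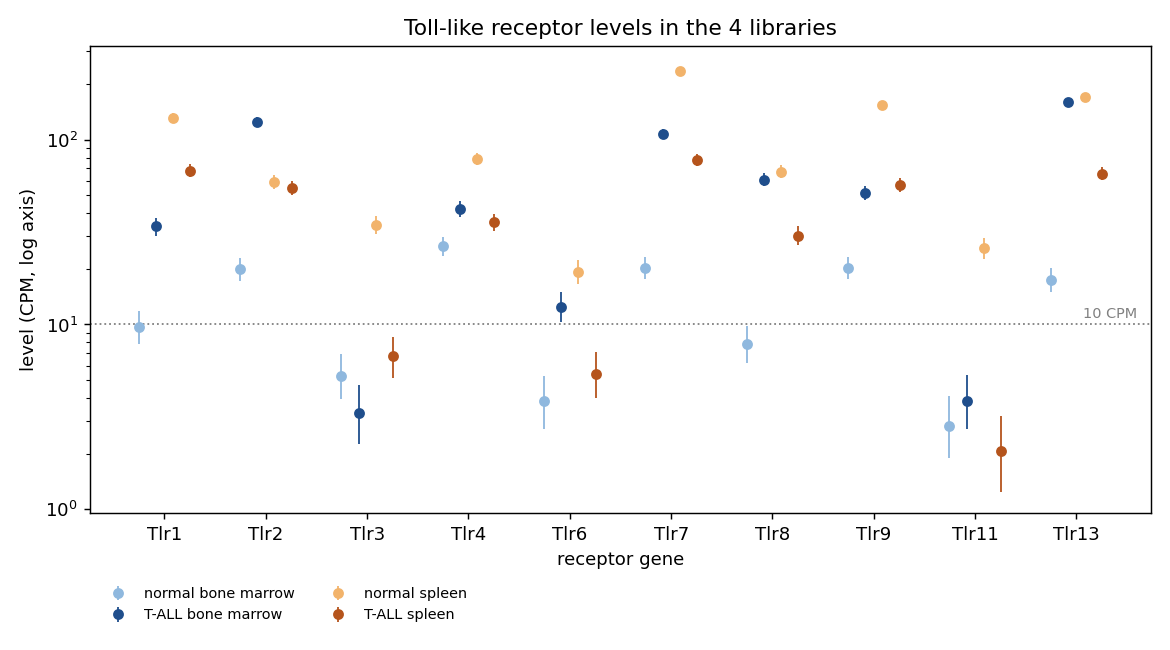
Level of each receptor (CPM, log axis) in the 4 libraries, with exact Poisson 95% counting intervals. The dotted line marks the minimum of 10 CPM. Normal spleen is highest for 9 of the 10 genes and T-ALL bone marrow for Tlr2.

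Among the cell-surface receptors, Tlr2, the common partner for lipopeptide recognition, had 19.99 CPM in normal bone marrow, 124 in T-ALL bone marrow, 59.2 in normal spleen and 54.6 in T-ALL spleen. It was the one receptor with its highest level in T-ALL bone marrow. The ratio of T-ALL to normal was 6.22 (5.35 to 7.28) in bone marrow and 0.922 (0.815 to 1.04) in spleen, where the interval includes equality. Tlr1, which joins Tlr2 to bind triacylated lipopeptides, had 9.74, 33.9, 131 and 68.0 CPM in the same order. Its T-ALL to normal ratio in bone marrow was 3.48 (2.76 to 4.42), and in spleen it was 1.93 times lower (1.75 to 2.13), just short of the 2-fold rule. Tlr6, the partner for diacylated lipopeptides, had 3.86, 12.4, 19.2 and 5.41 CPM. Tlr6 was 3.23-fold higher in T-ALL bone marrow (2.22 to 4.79) and 3.55 times lower in T-ALL spleen (2.58 to 4.97). Tlr4, the lipopolysaccharide receptor, had 26.5, 42.3, 78.6 and 35.7 CPM. Its bone marrow ratio of 1.60 (1.36 to 1.87) stayed under the rule, and it was 2.20 times lower in T-ALL spleen (1.93 to 2.52). Thus 3 of the 4 surface receptors were higher in T-ALL bone marrow and 2 of 4 lower in T-ALL spleen. The shares of all genes measured were 8.01% and 11%.

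Tlr1 and Tlr6 are neighbours on chromosome 5 and near-identical in part. Of the 45 receptor pairs, they were the one pair whose GENCODE M21 transcripts share 50-base stretches, and these were 15.3% of those of Tlr1 and 12.5% of those of Tlr6, with a longest shared run of 229 bases. Reads that fit both genes would be missing from unique counts, so the levels of both are uncertain to that extent.

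Among the endosomal receptors, Tlr13, the mouse sensor of bacterial ribosomal RNA, had 17.5 CPM in normal bone marrow, 160.2 in T-ALL bone marrow, 171 in normal spleen and 65.4 in T-ALL spleen. It had the largest bone marrow difference of the 10 genes, 9.18-fold higher in T-ALL (7.84 to 10.8), and was 2.62 times lower in T-ALL spleen (2.38 to 2.88). Tlr8, whose human counterpart senses single-stranded RNA, had 7.81, 60.8, 67.0 and 30.2 CPM. Tlr8 was 7.79-fold higher in T-ALL bone marrow (6.13 to 10.02) and 2.22 times lower in T-ALL spleen (1.92 to 2.57). For both genes the levels of T-ALL bone marrow and normal spleen lay close, with normal spleen at a ratio of 1.07 for Tlr13 and 1.10 for Tlr8 and intervals that include equality.

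Tlr7, which binds single-stranded RNA and lies beside Tlr8 on the X chromosome, had 20.3, 107, 236 and 77.8 CPM. It was 5.26-fold higher in T-ALL bone marrow (4.52 to 6.16) and 3.04 times lower in T-ALL spleen (2.79 to 3.31). Tlr9, the sensor of unmethylated CpG DNA, had 20.3, 51.6, 154 and 56.7 CPM. Tlr9 was 2.54-fold higher in T-ALL bone marrow (2.15 to 3.02) and 2.71 times lower in T-ALL spleen (2.45 to 3.004). In leukemic mice the levels of Tlr9 in the 2 organs lay close together, at a spleen to bone marrow ratio of 1.10 (0.969 to 1.25). The X-linked receptors Tlr7, Tlr8 and Tlr13 were higher in T-ALL bone marrow in 3 of 3 cases and lower in T-ALL spleen in 3 of 3. Of the 7 autosomal receptors, 4 of the 5 measured were higher in T-ALL bone marrow and 5 of 7 lower in T-ALL spleen. For both sets the shares of all genes measured were 8.01% higher in bone marrow and 11% lower in spleen. The Xist and Ddx3y values given above moved with the condition in both organs, and their part in the X-linked values was not tested.

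Tlr3, the double-stranded RNA receptor, and Tlr11, which recognises profilin of protozoan parasites, differed from the rest of the endosomal set. Tlr3 had 5.28, 3.33, 34.6 and 6.71 CPM, and Tlr11 had 2.84, 3.86, 25.8 and 2.06 CPM. Both were low in 3 of the 4 libraries and passed 10 CPM in normal spleen alone, so neither counted as measured in the bone marrow comparison. There Tlr3 had 52 reads in normal and 31 in T-ALL bone marrow (ratio 0.631, 0.391 to 1.00) and Tlr11 had 28 and 36 reads (1.36, 0.807 to 2.31). Differences were not detectable at this depth. In T-ALL spleen Tlr11 was 12.6 times lower (7.86 to 21.2), from 231 to 19 reads, and Tlr3 was 5.15 times lower (3.91 to 6.88), from 309 to 62 reads. Of the 6 endosomal receptors, the 4 measured in bone marrow were all higher in T-ALL, and 6 of 6 were lower in T-ALL spleen. The shares of all genes measured were 8.01% and 11%. Tlr3 and Tlr11 were measured in spleen through the normal library alone, so they could not be called higher there.

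**Figure D2:**
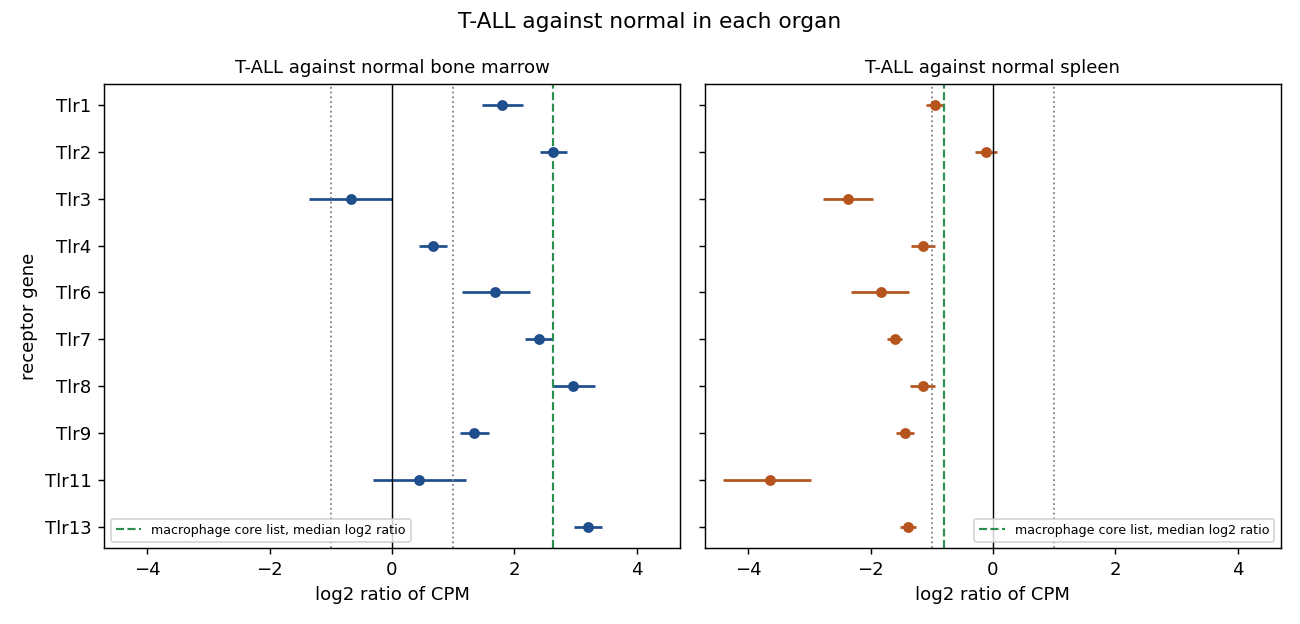
Log2 ratio of CPM, T-ALL against normal, for each receptor in bone marrow (left) and spleen (right), with exact binomial 95% counting intervals. Dotted lines mark 2-fold, the green dashed line the median of the macrophage core list. Tlr13 and Tlr8 lie above the core median in bone marrow, Tlr2 lies on it and the other 7 lie below it. In spleen Tlr2 alone lies above it.

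The 4 libraries can also be compared by organ, with the caution that each organ comparison shares libraries with the T-ALL comparisons. Between normal mice, 10 of 10 receptors were higher in spleen, against 16.1% of the 10072 genes measured, and the ratios ran from 2.96 for Tlr2 (2.51 to 3.50) to 13.5 for Tlr1 (10.9 to 16.8). Tlr4 was 2.97-fold higher and Tlr7 11.6-fold higher (10.1 to 13.5). Tlr1, Tlr3, Tlr6, Tlr8 and Tlr11 were under 10 CPM in normal bone marrow, so they could be called higher but not lower. The receptors' median of 2.83 lay beside 2.89 for the macrophage core list, and 4 receptors lay above it and 6 below. With that core median subtracted, 0 receptors were higher and 2 lower, Tlr2 and Tlr4, beside 1.41% and 92.0% of all genes measured. Between leukemic mice, 0 of 8 measured receptors were higher in spleen and 3 were lower, Tlr13 by 2.45 times (2.23 to 2.70), Tlr6 by 2.30 times (1.64 to 3.27) and Tlr2 by 2.28 times (2.05 to 2.54). The background there was 5.44% higher and 11% lower of 9852 genes. Tlr6 reached the minimum level in T-ALL bone marrow alone, so it could not be called higher in T-ALL spleen. Tlr1, at 2.005-fold higher in T-ALL spleen (1.75 to 2.30), and Tlr8, at 2.01 times lower (1.74 to 2.33), fell just short of the rule on the log2(CPM + 1) scale.

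Levels of different receptors were compared on the deposited RPKM, which divides reads by gene length. In normal bone marrow Tlr2 (6.99 RPKM) and Tlr4 (6.92) led. In T-ALL bone marrow Tlr2 (42.9) and Tlr13 (39.6) led, ahead of Tlr7 (28.3). In normal spleen Tlr7 (62.8) led, followed by Tlr9 (44.1), Tlr1 (43.2) and Tlr13 (42.4). In T-ALL spleen Tlr1 (22.7), Tlr7 (21.0) and Tlr2 (19.1) lay close together. The make-up of the receptor set thus differed between the libraries. Surface receptors made up 47.9% of the receptors' summed RPKM in normal and 40.2% in T-ALL bone marrow, but 32.9% in normal and 44.8% in T-ALL spleen. The endosomal share was accordingly highest in normal spleen, at 67.1%.

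Within receptor pairs, Tlr2 and Tlr4 stood at an RPKM ratio of 1.01 in both normal libraries, and at 3.94 (3.51 to 4.43) in T-ALL bone marrow and 2.04 (1.78 to 2.36) in T-ALL spleen. Tlr1 and Tlr6, the alternative partners of Tlr2, stood at 2.17 (1.48 to 3.25) and 2.34 (1.89 to 2.93) in normal and T-ALL bone marrow. In spleen that ratio was 5.86 (4.99 to 6.92) in normal and 10.8 (8.10 to 14.7) in T-ALL mice. In both organs, then, Tlr2 RNA was high relative to Tlr4 RNA in leukemia. The ratio of Tlr1 to Tlr6 was higher in spleen than in bone marrow. Within spleen it was also higher in T-ALL than in normal mice, with 50 reads of Tlr6 in T-ALL spleen. The ratio of Tlr7 to Tlr8 stayed between 1.48 and 2.97.

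**Figure D3:**
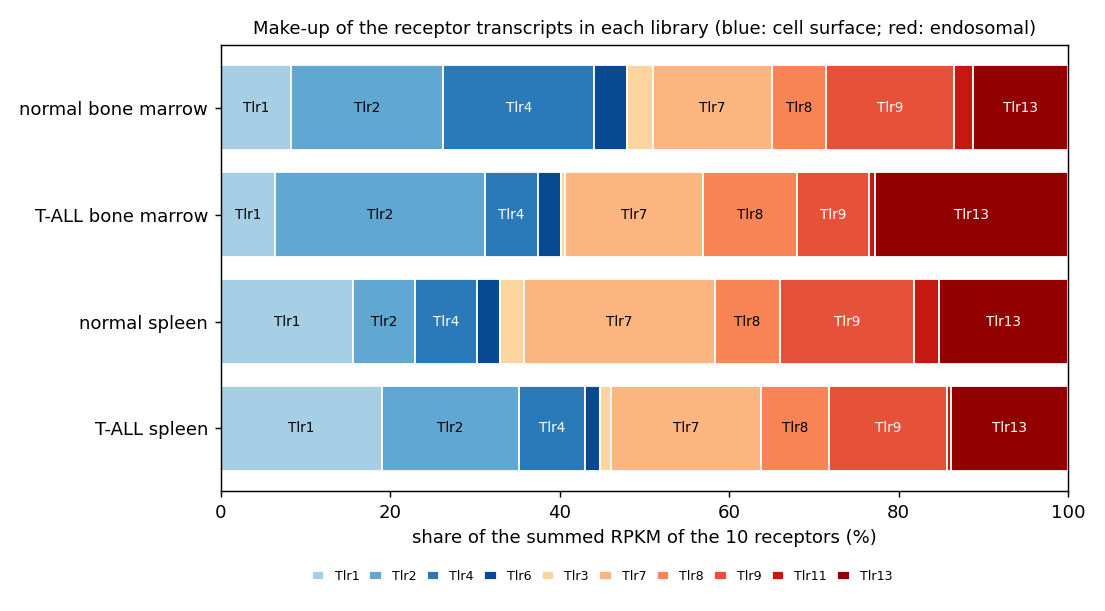
Share of each receptor in the summed RPKM of the 10 genes (percent, horizontal axis) in each library, with surface receptors in blue and endosomal ones in orange to red. The blue part is smallest in normal spleen (32.9%) and largest in normal bone marrow (47.9%).

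The receptors were also set against Csf1r. Per 100 CPM of Csf1r, Tlr13 stood at 13.1 CPM in normal bone marrow, 16.9 in T-ALL bone marrow, 7.08 in normal spleen and 4.60 in T-ALL spleen. Tlr8 stood at 5.86, 6.43, 2.77 and 2.13, Tlr2 at 15.0, 13.1, 2.45 and 3.84, and Tlr7 at 15.2, 11.3, 9.78 and 5.48. For those 4 genes the ratio to Csf1r differed by less than 1.5 times between the bone marrow libraries. For the other 6 it was higher in normal than in T-ALL bone marrow, by 2.04 times for Tlr1, 2.20 for Tlr6, 2.79 for Tlr9, 4.45 for Tlr4, 5.23 for Tlr11 and 11.3 for Tlr3. The normal bone marrow library was also the one with the most neutrophil precursor RNA, whose part was not tested.

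Genes that bring ligands to the receptors or carry the receptors to their compartment were called in the same directions as the receptors, with 1 exception. Of the 19 partner and trafficking genes, 16 were measured in bone marrow, 9 were higher and 1 lower in T-ALL, and in spleen 0 of 15 were higher and 5 lower. Over all genes measured, 8.01% were higher and 1.03% lower in bone marrow, and 10.3% higher and 11% lower in spleen. Unc93b1, the chaperone of the endosomal receptors, had 220 CPM in normal bone marrow, 455 in T-ALL bone marrow, 983 in normal spleen and 353 in T-ALL spleen. Cd36, a scavenger receptor that hands lipids to Tlr2, had 11.7, 82.2, 122 and 36.4 CPM. Ly86 and Cd180, which form a receptor complex related to that of Tlr4, were also higher in T-ALL bone marrow and lower in T-ALL spleen, Ly86 with 16.5, 92.0, 187 and 77.6 CPM and Cd180 with 34.1, 115, 220 and 96.4 CPM. Cd14, the lipopolysaccharide co-receptor, was higher with them in T-ALL bone marrow, at 80.4 against 14.0 CPM. The asparagine endopeptidase Lgmn, which cleaves endosomal receptors, went from 33.5 to 237 CPM there and was at 490.4 and 539 CPM in the spleens. Cd14 and Lgmn are also in the macrophage core list. Lbp, the lipopolysaccharide-binding protein, was the 1 gene lower in T-ALL bone marrow (149 to 69.5 CPM) and was nearly absent from the spleens (2.80 and 0.866 CPM).

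Signalling adaptors and kinases differed little. Of 21 genes, 1 was higher in T-ALL bone marrow, the kinase Map3k8 (10.6 to 30.2 CPM), and 2 were lower in T-ALL spleen, Irak2 (82.7 to 34.5 CPM) and the Tlr4 adaptor Ticam2 (47.3 to 22.3 CPM). The shares of all genes measured were 8.01% and 11%, so these counts do not stand out from the background. The list's medians were 0.21 in bone marrow and -0.51 in spleen. Myd88 and Ticam1, named here after their values were seen, passed the rule in neither T-ALL comparison. Myd88 had 71.8, 103, 107 and 71.2 CPM, and Ticam1 had 25.2, 31.9, 47.1 and 28.0 CPM in the 4 libraries.

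Among 10 transcription factors that act downstream, 4 were higher in T-ALL bone marrow and 4 lower in T-ALL spleen. The shares of all genes measured were 8.01% and 11%. Irf5, which drives inflammatory cytokine genes, had 39.6, 193, 323 and 106 CPM, and Irf7, which drives type I interferon genes, had 44.2, 117, 230.2 and 101 CPM. Relb, a subunit of non-canonical NF-kB, had 13.2, 29.6, 237 and 82.3 CPM. These 3 genes were on the higher list in bone marrow and on the lower list in spleen, as were Tlr6, Tlr7, Tlr8, Tlr9 and Tlr13. Of 14 negative regulators, 2 of 12 measured were higher in T-ALL bone marrow, the kinase Lyn (186 to 420 CPM) and the deubiquitinase Tnfaip3 (70.4 to 149 CPM). The share of all genes higher there was 8.01%. In T-ALL spleen 1 of 13 was higher, again Tnfaip3 (189 to 599 CPM), and 1 lower, Nlrx1 (27.4 to 8.99 CPM), beside 10.3% and 11% of all genes measured, so neither count stands out from the background.

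Genes that receptor signalling is known to induce in macrophages did not all move with the receptors. In bone marrow, 8 of 13 measured were higher in T-ALL and 0 lower, beside 8.01% and 1.03% of all genes measured. The neutrophil chemokine Cxcl2 went from 1.01 to 33.2 CPM, the cytokine Il1b from 18.3 to 148 CPM, the prostaglandin synthase Ptgs2 from 6.29 to 42.7 CPM and the co-stimulatory ligand Cd86 from 5.28 to 36.2 CPM. In spleen, where 8 receptors were lower, 5 of 15 measured targets were higher and 2 lower, and the median was 0.50. Over all genes measured there, 10.3% were higher and 11% lower. Il10, an anti-inflammatory cytokine, went from 1.34 to 19.8 CPM, Cxcl2 from 1.79 to 20.8 CPM and the chemokine Ccl4 from 18.5 to 59.3 CPM, while Ccl5 went from 166 to 41.6 CPM. T cells and NK cells also express Ccl4 and Ccl5, and T cell genes were higher and NK cell genes lower in that library. The part of those cells was not tested.

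Other innate sensors were called in the same directions as the receptors. Of 13 genes, all measured, 5 were higher and 0 lower in T-ALL bone marrow, and 0 higher and 5 lower in T-ALL spleen. The shares of all genes measured were 8.01% higher and 1.03% lower in bone marrow, and 10.3% higher and 11% lower in spleen. Nlrp3, which forms an inflammasome, had 8.62 CPM in normal bone marrow, 50.1 in T-ALL bone marrow, 66.4 in normal spleen and 16.5 in T-ALL spleen. Nod2, the muramyl dipeptide sensor, had 4.16, 12.9, 27.2 and 4.33 CPM, and Nlrp1b had 2.74, 15.6, 27.6 and 5.41 CPM. Zbp1, a sensor of left-handed nucleic acid, was higher in T-ALL bone marrow (15.8 to 48.2 CPM), and Nlrc4, of the flagellin inflammasome, lower in T-ALL spleen (40.2 to 16.9 CPM).

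**Figure D4:**
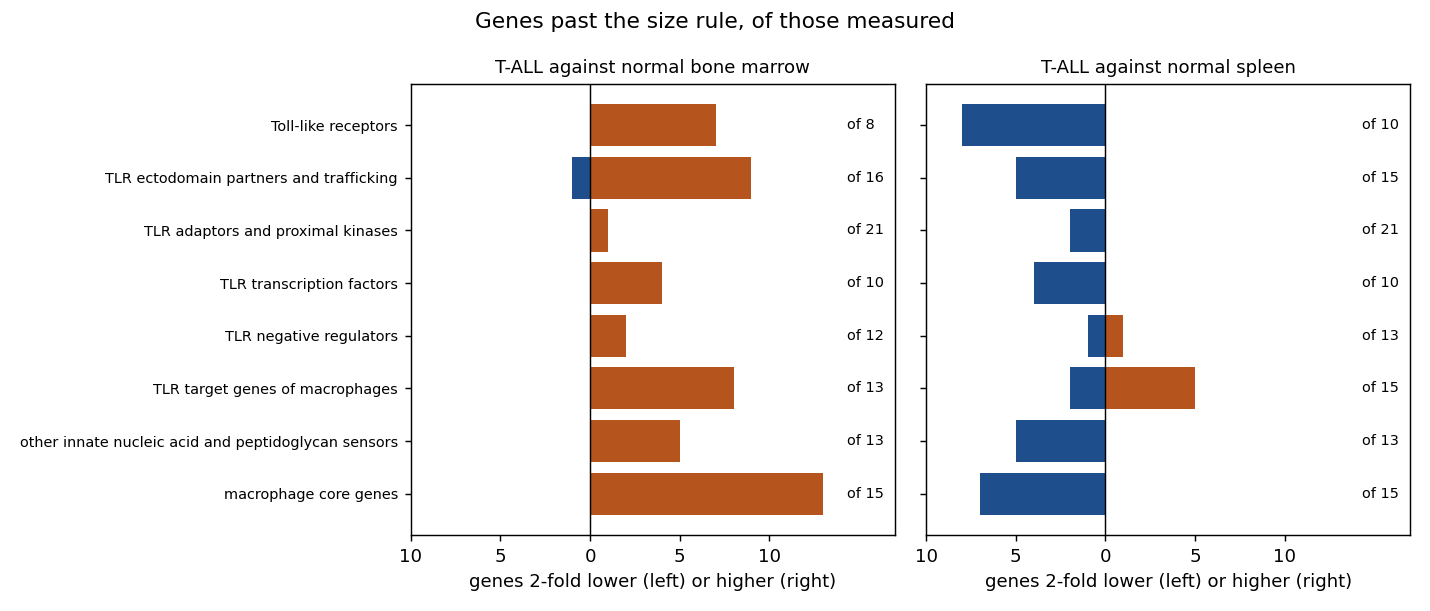
Genes at least 2-fold lower (blue, left) or higher (orange, right) in T-ALL, by list, in bone marrow and spleen, with the number measured at the right of each row. Receptors are 7 higher in bone marrow and 8 lower in spleen, while target genes are 8 higher in bone marrow and 5 higher with 2 lower in spleen. The shares of all genes measured were 8.01% higher in bone marrow, and 10.3% higher and 11% lower in spleen. With the macrophage core median subtracted, 0 receptors and 0.165% of all genes were higher in bone marrow.

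The genes with profiles most like each receptor were sought by the root-mean-square difference of log2(CPM + 1) after centring over the 4 libraries. The search covered 9861 genes with 10 CPM or more in some library. Predicted and clone-named genes, pseudogenes, Y-linked genes and the X-linked transcripts Xist and Tsix were left out. Other X-linked genes were kept. For Tlr13 the nearest gene was Tlr8 (0.14), followed by the Fc receptor Fcgr1 (0.17) and Cd36 (0.20). Fcgr1 (0.08), Ifi204 (0.11) and the transcription factor Klf4 (0.12) were nearest to Tlr8, and Gpr35 (0.08), Tmem51 (0.10) and Itgb5 (0.10) to Tlr7. Nearest to Tlr2 were Lifr (0.14), Lgals3 (0.16) and Slc4a1 (0.18), which like Tlr2 were highest in T-ALL bone marrow. Tlr4 lay nearest to Dennd1c (0.02), Trim30a (0.03) and Cd52 (0.04), Tlr9 to Fmn1 (0.06), H2-DMb1 (0.07) and Tnfrsf11a (0.07), and Tlr11 to Notch4 (0.25), Cd7 (0.32) and Mycl1 (0.32). With 4 libraries such likeness is a description of these profiles.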

How the data were processed

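Each library's table, per the file headers, gives the deposited counts of uniquely mapped reads per gene, gene length and the deposited RPKM (reads scaled by gene length and by the library's total). The aligner, counting rule, strand, genome build and annotation were not given in the sources used here. Total RNA was isolated with a column kit, per the labels' protocols. Genes without a line were set to 0, and recomputed RPKM differed from the deposited values by at most 9.15e-06%.

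Counts were scaled to CPM after TMM normalisation in edgeR 4.0.16 under R 4.3.3 (factors from 0.991 to 1.01), so that 1 read was worth 0.102 to 0.111 CPM. With 1 library per group there was no model and no p-value. Calls need 2-fold on log2(CPM + 1), which understates changes of low genes, and 10 CPM in the higher library. Folds are ratios of CPM with exact binomial 95% intervals, which treat reads as independent molecules, although PCR copies are not. RPKM ratios between genes carry intervals of the same kind. Alternative median-of-ratios size factors came from DESeq2 1.42.0. Other steps used scipy 1.17.1, numpy 2.4.6, matplotlib 3.10.9 and pandas 2.3.3 in Python 3.11.15. The rule was checked on simulated counts.

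The members and lists were chosen with earlier results of these data known. Named genes are the 10 receptors, up to 4 called members of each pathway list and comparison, 8 defining cell markers and the 3 genes most like each receptor, and the text gives some of them. Promoters were matched by NCBI Gene ID, 8 of 10 receptors. The closing section gives 11 other settings.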

Additional observations from a re-analysis of the deposited data

Results flagged for a closer look

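For 5 receptors, T-ALL bone marrow was at least 2-fold higher than normal and T-ALL spleen at least 2-fold lower, so that the T-ALL and normal libraries differed in opposite directions in the 2 organs. With 1 library per group the difference was not tested. Tlr6 reached 10 CPM only in the higher library of each comparison, so its calls could go in these directions alone. The same held for Tlr8 in bone marrow. The bone marrow log2 fold minus the spleen log2 fold was 4.50 for Tlr13, 3.94 for Tlr8, 3.93 for Tlr7, 3.13 for Tlr6 and 2.73 for Tlr9. Of the 9178 genes measured in both comparisons, 289 (3.15%) had such opposite calls. In the macrophage core list 13 of 15 genes were higher in T-ALL bone marrow and 7 of 15 lower in T-ALL spleen. The core list's median log2 folds, 2.63 and -0.79, thus had the same directions as these receptors. With the macrophage core median subtracted from every gene, 0.165% of all genes measured and 0 receptors were higher in T-ALL bone marrow.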

How the results depend on the processing

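Of 240 single receptor values recomputed under the alternatives, 195 moved by less than their counting interval reaches to 1 side, and 34 by more. The other 11, all called in the main setting, reversed in sign, and 0 of the 200 outside the setting relative to the macrophage core median did so. Uncalled values that changed sign in that setting were counted as moved. In bone marrow Tlr4 went from 0.66 to -1.97 and Tlr11 from 0.34 to -2.29, and in spleen Tlr2 went from -0.11 to 0.68. Of 88 counts, 74 stayed within 1.5 times. Set against the core median, receptors called in bone marrow were 0 higher and 3 lower, and in spleen 2 lower. Between normal organs 0 were higher and 2 lower, and between T-ALL organs 1 was higher and 2 lower. On that scale 95.8% of all genes measured in bone marrow were lower. The receptors' median was then -1.04 in bone marrow, with Tlr1 at -0.93, Tlr2 at -0.048, Tlr6 at -1.16, Tlr7 at -0.29 and Tlr9 at -1.32. Between normal organs the median was -0.054, with Tlr2 at -1.37, Tlr3 at -0.38, Tlr4 at -1.35, Tlr6 at -0.83, Tlr9 at -0.025 and Tlr11 at -0.083. The same median is subtracted from every gene, so these shifts follow from the construction.

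At a 4-fold threshold 4 receptors were higher in T-ALL bone marrow, 2 lower in T-ALL spleen and 0 lower between the T-ALL organs. The shares of all genes measured were 2.82%, 1.34% and 4.68%. With a minimum of 50 CPM, 5 of the 7 measured were lower in T-ALL spleen, beside 10.5% of all genes measured. Tlr3, Tlr6 and Tlr11 were under that minimum in both spleens. Between T-ALL organs 1 receptor, Tlr1, was higher with library totals, with median-of-ratios factors, at a pseudocount of 0.1 CPM and at 1.5-fold. In these settings 5.70%, 6.26%, 5.78% and 14.1% of all genes measured were higher. The log2 fold of Tlr1 was 0.983 in the main setting, just under the 2-fold limit. With library totals, median-of-ratios factors and the 0.1 CPM pseudocount it was 1.007, 1.037 and 1.001, just over that limit. The counts at 4-fold and at 50 CPM follow from the receptors' folds and levels. The cause of the remaining changes was not tested. No library could be left out, since each group has 1. No paired analysis was possible because each group has 1 library and the labels give no shared replicate. Depth limits Tlr3, Tlr6 and Tlr11, which had under 100 reads in several libraries.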

Other observations

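Tlr5, the flagellin receptor, and Tlr12, a further profilin receptor, were not among the 10 genes. Tlr5 had 8, 48, 125 and 15 reads in normal bone marrow, T-ALL bone marrow, normal spleen and T-ALL spleen, and was 8.61 times lower in T-ALL than in normal spleen (5.02 to 15.8). Tlr12 had 6.39, 7.30, 21.8 and 8.55 CPM, and was 2.55 times lower in T-ALL spleen (1.95 to 3.36). Both were highest in normal spleen, as were 9 of the 10 receptors described above.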
